A study of Mus musculus with 11 samples.

Results

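Collagen genes and the genes of enzymes and chaperones that modify collagen were followed in 3T3-L1 cells given a fatty acid. They were taken by name: every gene whose array symbol begins with Col and a chain number, with P4ha, Plod or Loxl, or is Serpinh1. Of 52 such genes with a probe set named for them alone, 37 had a mean normalised intensity above 7.81, the 40th percentile of all values. These 37, out of 12428 genes tested, are described here, each through the probe set with the highest mean log2 value. No measured difference entered that choice.

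3T3-L1 is an established mouse fibroblast line that can be turned into adipocytes, and the labels call these cultures preadipocytes. The cells received t10c12 CLA, a conjugated linoleic acid whose double bonds lie at carbons 10 and 12, or linoleic acid (LA), the control, and were harvested after 4, 8 or 12 h. The 11 Affymetrix arrays held 2 CLA arrays and 1 LA array of 4 h, 2 CLA and 2 LA arrays of 8 h, and 2 CLA and 2 LA arrays of 12 h. All groups had a fatty acid, the labels give no dose, and cells without added fatty acid and a further LA array of 4 h were not analysed here. Everything comes from 1 cell line, and since separate cultures are not named for the biological replicates, p-values cover the spread between these arrays, which may be technical.

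Collagens are built in the endoplasmic reticulum as helical trimers. Prolyl 4-hydroxylases (P4ha genes) make the hydroxyproline that keeps the helix stable, lysyl hydroxylases (Plod genes) make the hydroxylysine used for sugars and cross-links, and Serpinh1 (HSP47) is the chaperone that binds folded procollagen. After secretion, lysyl oxidases (Loxl genes) start the cross-links. Preadipocytes are fibroblast-like cells that lay down fibrillar collagens, and the matrix around maturing fat cells is known for its basement membrane and type VI collagens.

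The deposited intensities were background-subtracted but not scaled between arrays, with array medians of 10.6 to 20.1, and were quantile normalised. Replicates correlated across genes at Pearson r = 0.970 to 0.978. On the leading principal component (35.6% of the variance) the LA arrays of 12 h stood apart from all others, at 48.7 and 48.8, while the other arrays lay between −43.0 and 16.4. Of 8 preadipocyte and fibroblast markers, 7 were above background on all arrays and Cd34 on none. All 6 endothelial markers were at or near background, and so were Adipoq, Lep, Cidec and Retn of the 6 adipocyte markers. The other 2, Fabp4 (mean 294) and Lipe (32.0), were above background on all arrays. So were Sp7 of osteoblasts (35.7) and Ckm of skeletal muscle (20.9). The markers thus fitted the labelled cell type only in part. Markers of other types with a clear signal were Acta2 and Tagln of smooth muscle, Sox9 of cartilage, Csf1r of macrophages, and Fabp4, which preadipocytes also express. Of 6 macrophage markers 3 (Csf1r, Adgre1 and Lyz2) were above background on all arrays, and Ptprc and Itgam on none. Csf1r averaged 138 on the CLA arrays of 4 h, against 1171 on the 1 LA array of 4 h, and between 122 and 309.5 in the groups of 8 and 12 h. The 6 markers summed to 196 and 249 on the CLA arrays of 4 h, against 1243 on the LA array, which enters each comparison at 4 h. Most of that LA sum was Csf1r. Of the others, Adgre1 was higher on the LA array (34.7, against a CLA mean of 29.9). Lyz2 (28.3, against 39.4), Cd68 (7.95, against 10.9), Ptprc (4.16, against 5.74) and Itgam (−2.94, against −1.82) were lower there. The part of these markers in the comparisons at 4 h was not tested. The probe set ratios that report RNA integrity moved with the fatty acid: the GAPDH 3′ to 5′ ratio was 0.884 and 0.954 on the CLA arrays of 12 h, against 0.983 and 1.18 on the LA arrays of 12 h. The part of RNA integrity in the differences below was not tested. In whole cultures, fewer cells of a type and less RNA per cell cannot be told apart.

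The chains of type I and type III collagen, the main fibrils of connective tissue, gave bright signals that were close to level at 12 h through the probe sets chosen. Col1a2, a chain of type I collagen, read 8947 and 8843 on the CLA arrays of 12 h, against 8908 and 9194 on the LA arrays. Col1a1, the other chain, read 5322 and 4582 with CLA, against 5223 and 4490.5 with LA. Col3a1, the chain of type III, read 7317 and 7818 with CLA, against 7229 and 7818 with LA. For all 3 genes the arrays of the fatty acids overlapped at 12 h. Over all 11 arrays Col1a2 ranged from 8257 to 9389.8, Col3a1 from 6885 to 7858 and Col1a1 from 4067 to 5322. The 95% intervals of the 12 h differences on the log2 scale were −0.11 to 0.064 for Col1a2, −0.11 to 0.12 for Col3a1 and −0.18 to 0.23 for Col1a1, CLA minus LA. The other Col1a1 probe set, with a mean of 2014, gave −0.29 at 12 h, outside that interval. It also gave 0.56 for 12 h minus 8 h in LA cells and 0.58 for 8 h minus 4 h in CLA cells. The chosen one gave 0.072 and 0.020, so level values for Col1a1 rest on the probe set. The other Col3a1 probe set, with a mean of 1272, gave 0.062 at 12 h. For 8 h minus 4 h in LA cells it gave 0.43, against 0.042 from the chosen one. The other Col1a2 probe sets gave 0.044 and 0.093 at 12 h. By brightness Col1a2 ranked 14, Col3a1 29 and Col1a1 129 among the genes tested. Whether signals this bright still follow the RNA level was not tested, so the narrow intervals describe the signal only.

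**Figure D1:**
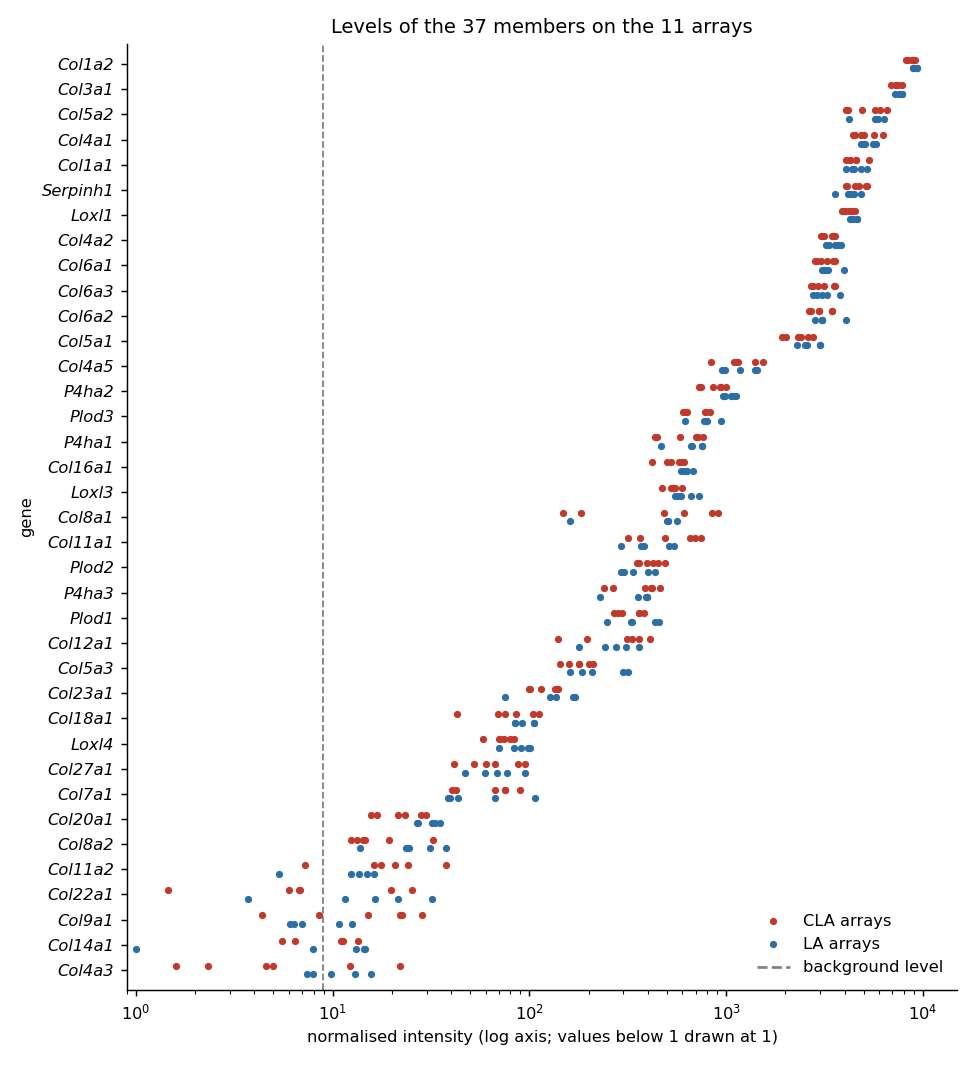
Normalised intensity (log axis) of each of the 37 genes on the 11 arrays, CLA arrays in red above LA arrays in blue, with genes down the page by mean and the background level of 8.89 dashed. Each gene is read along its own line, since probe sets differ in brightness for reasons other than RNA level: Col8a1 spans 148 to 914, while Col1a2 spans only 8257 to 9389.8.

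Within the group, 30 genes had a mean above 40 and 7 lay lower. Those 7 were Col20a1, Col8a2, Col11a2, Col22a1, Col9a1, Col14a1 and Col4a3. For Col22a1, Col9a1, Col14a1 and Col4a3 all arrays of at least 1 group lay at or below the background level of 8.89. That level is the 95th percentile of 27 control probe sets for bacterial RNA that was not added. No dim gene passed a test in any comparison below, and their errors were wide: the log2 difference of Col4a3, CLA minus LA at 12 h, was −0.093 ± 0.87 (standard error). The 15 genes under the intensity limit included the cartilage collagens Col2a1, Col9a2, Col9a3 and Col10a1 and the basement membrane chains Col4a4, Col4a6 and Col15a1. Just inside the limit were Col4a3 with a mean of 9.24 and Col14a1 with 9.85, and just outside it Col13a1 with 7.55 and Col6a4 with 6.93. The probe set for Loxl2 also carries another symbol, so Loxl2 was not analysed here.

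After 4 h, none of the 37 genes differed between CLA and LA in limma after Benjamini-Hochberg adjustment at 0.05, where 0.29% of all genes did. Unadjusted, 9 of 37 (24.3%) had a p below 0.05, against 9.09% of all genes. With CLA 2 of them were higher (3.92% of all genes) and 7 lower (5.17%). The smallest p belonged to P4ha2, a catalytic subunit of prolyl 4-hydroxylase, which read 729 and 743 with CLA, against 969 on the LA array. Both CLA arrays lay below the LA array, a log2 difference of −0.40 ± 0.11 (standard error; adjusted p = 0.242). Next came Col1a2, at 8376 and 8257 with CLA, against 9389.8 with LA (−0.18 ± 0.050, adjusted p = 0.251). Col6a2, a chain of the beaded type VI collagen, read 3453 and 3467 with CLA, against 4073 with LA (−0.24 ± 0.071, adjusted p = 0.302). Neither gene's arrays overlapped, as in 73% of the 37 genes and 75.8% of all genes at this time, where 1 LA array stands for its group. Serpinh1 went the other way, with 4077 and 4118 in CLA cells, against 3564 in LA cells (0.20 ± 0.083, adjusted p = 0.491). In the authors' deposited table, which combines the replicates of each time, Loxl3 was the only one of the 37 with an adjusted p below 0.05 at 4 h, with a ratio of 0.787, and 0.885% of all genes passed there. Loxl3, a lysyl oxidase, read 525 and 536 with CLA, against 659.5 with LA, a log2 difference of −0.31 ± 0.15 (adjusted p = 0.574).

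After 8 h again none of the 37 differed, and no gene on the array did (0%). With the p-values of the authors' deposited table adjusted here, none of the 37 was below 0.05, with 0.121% of all genes. Unadjusted, limma gave a p below 0.05 for 1 of 37 (2.7%) and for 3.98% of all genes. The 1 gene was Col7a1, the anchoring fibril collagen of epithelial junctions, at 75.3 and 66.6 with CLA, against 39.4 and 43.6 with LA. Its arrays did not overlap, at a log2 difference of 0.75 ± 0.23 (adjusted p = 0.986). Col12a1, which coats type I fibrils, read 314 and 331 with CLA, against 243 and 276 with LA (0.31 ± 0.16, adjusted p = 0.986). Its other probe set above the intensity limit gave 0.12. Col14a1, a related fibril-coating chain, read 11.2 and 11.1 with CLA, against 7.92 and -0.583 with LA (1.62 ± 0.79, adjusted p = 0.986). Both LA arrays of Col14a1 lay under the background level, and the CLA arrays were not far above it. A further dim Col14a1 probe set gave −1.54 at 8 h, the opposite sign.

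After 12 h, Col8a1, Col11a1 and Plod2 were higher with CLA than with LA, and Col5a3 and Loxl4 were lower. They made 5 of 37 genes (13.5%), against 18.9% of all genes called at 12 h (9.47% higher and 9.42% lower), so collagen genes passed the test no more often than genes at large. The genes higher with CLA were so by 1.42-fold (Plod2) to 1.79-fold (Col11a1). Of the 9 fibrillar chains 1 was higher and 1 lower, of the 5 beaded filament and network chains 1 was higher, of the 10 modifying genes 1 was higher and 1 lower, and none of the 6 basement membrane and anchoring chains and of the 7 fibril-associated and transmembrane chains was called. The median log2 difference of the 37 was −0.089, beside −0.15 over all genes. Replicate arrays did not overlap between fatty acids for 64.9% of the 37 and for 62.7% of all genes.

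Col8a1 is the network collagen of blood vessel walls and of the cornea. At 4 h it read 148 and 183 on the CLA arrays, against 160.2 on the LA array. At 8 h it read 610.3 and 482 with CLA, against 501 and 508 with LA, and at 12 h 914 and 844 with CLA, against 507 and 563 with LA. The fatty acids thus overlapped at 4 and 8 h and were apart at 12 h, where Col8a1 averaged 879 ± 49.3 with CLA and 535 ± 39.7 with LA (SD, n = 2 each). The log2 difference at 12 h was 0.72 ± 0.14, or 1.64-fold (adjusted p = 0.00658). Its other probe sets gave 0.58 and 1.30 at 12 h.

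Col11a1, a minor chain that nucleates cartilage fibrils and is also made by activated fibroblasts, read 366 and 318 with CLA at 4 h, against 292 with LA (0.22 ± 0.20, adjusted p = 0.863). At 8 h the CLA arrays read 744 and 488, further apart from each other than the LA arrays at 513 and 543, and the groups overlapped. At 12 h Col11a1 read 693 and 657 with CLA, against 383 and 369 with LA. Both CLA arrays of 12 h stood above both LA arrays of that time, by 0.84 ± 0.16 on the log2 scale or 1.79-fold (adjusted p = 0.00664). A further probe set of Col11a1 gave 0.62 at 12 h.

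The promoters of Col8a1 and Col11a1 are shown because, of the 3 genes called higher with CLA at 12 h, these had the largest differences. The dim genes Col9a1 (1.35) and Col11a2 (0.91), not called, had larger ones. Each line gives RefSeq sequence of mouse build GRCm38.p6 from 250 bases before to 50 after the start of transcription, read along the gene. Capitals mark CCAAT, the box bound by NF-Y, and GGGCGG, the GC box bound by Sp1, in either direction (ATTGG and CCGCCC on the other strand). Col8a1 lies on the minus strand at chr16:57754688-57754987 and Col11a1 on the plus strand at chr3:114030290-114030589.
Col8a1: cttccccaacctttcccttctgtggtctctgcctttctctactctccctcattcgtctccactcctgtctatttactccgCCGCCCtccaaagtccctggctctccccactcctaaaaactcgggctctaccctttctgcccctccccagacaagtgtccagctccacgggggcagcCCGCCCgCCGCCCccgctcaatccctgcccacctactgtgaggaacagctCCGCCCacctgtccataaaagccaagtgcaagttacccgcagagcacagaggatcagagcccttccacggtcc
Col11a1: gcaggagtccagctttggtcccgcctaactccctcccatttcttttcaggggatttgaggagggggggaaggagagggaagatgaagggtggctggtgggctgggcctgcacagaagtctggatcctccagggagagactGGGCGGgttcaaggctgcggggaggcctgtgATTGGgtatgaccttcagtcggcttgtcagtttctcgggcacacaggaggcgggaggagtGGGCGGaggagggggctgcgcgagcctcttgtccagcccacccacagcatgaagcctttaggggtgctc
The Col8a1 window held GC boxes and no CCAAT, while the Col11a1 window held both motifs. Among the 28 of 37 genes with an entry in the promoter table, GGGCGG was in 22 (78.6%) and CCAAT in 11 (39.3%), against 66.6% and 43.0% of the 10010 tested genes with an entry. TATAAA was in 4 (14.3%), against 9.27% of tested genes, and CAGAC, the core bound by Smad proteins, in 16 (57.1%), against 52.5%. All motifs were counted on both strands, and a match is only a run of letters in this window.

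Plod2, the lysyl hydroxylase that acts on the ends of fibrillar collagen chains and so sets the type of cross-link, read 361 and 354 with CLA at 4 h, against 335 with LA. At 8 h it read 492 and 424 with CLA, against 402 and 437 with LA, and the groups overlapped. At 12 h it read 450.1 and 395 with CLA, against 292 and 301 with LA. The LA arrays of 12 h were the lowest of all 11 arrays for this gene. The log2 difference was 0.51 ± 0.11, or 1.42-fold (adjusted p = 0.0131), and the other Plod2 probe set gave 0.69. The other lysyl hydroxylases were not called at 12 h: Plod1 read 382 and 359 with CLA, against 455 and 434 with LA (−0.26 ± 0.12, adjusted p = 0.129). Plod3, which also attaches the sugars, read 786 and 791 with CLA, against 944 and 794 with LA (−0.13 ± 0.13, adjusted p = 0.479). Plod2 and Plod1 thus had differences of opposite sign, and only that of Plod2 passed the test.

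For Col5a3, a chain found in some type V collagen trimers, the CLA arrays of 4 h, at 144 and 179, lay on either side of the LA array at 161. At 8 h it read 159 and 178 with CLA, against 185 and 208 with LA, without overlap but not called (−0.22 ± 0.14, adjusted p = 0.986). At 12 h it read 211 and 201 with CLA, against 298 and 318 with LA. Both CLA arrays of 12 h were below both LA arrays, a log2 difference of −0.57 ± 0.14 or 1.49-fold lower (adjusted p = 0.0182). The more abundant partners in type V collagen differed less at 12 h through the probe sets chosen. Col5a1 read 2772 and 2608 with CLA, against 2997 and 3016 with LA (−0.16 ± 0.061, adjusted p = 0.0833), and Col5a2 read 6060.2 and 6567 with CLA, against 5926 and 6375 with LA (0.038 ± 0.071, adjusted p = 0.732). The other Col5a2 probe set, with a mean of 1767, gave 0.34 at 12 h, so the small difference of Col5a2 rests on the probe set.

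Loxl4, a lysyl oxidase of modest signal, read 79.7 and 83.5 with CLA at 4 h, against 69.8 with LA, and at 8 h 70.1 and 71.0 with CLA, against 90.7 and 83.2 with LA. At 12 h it read 58.0 and 74.0 with CLA, against 97.9 and 101 with LA, a log2 difference of −0.59 ± 0.16 (adjusted p = 0.0309). CLA was thus above LA at 4 h and below it at 8 and 12 h. Its dimmer probe set gave 0.36 at 12 h, the opposite sign, so the direction for Loxl4 rests on the probe set chosen. Loxl1, which cross-links elastin, read 4227 and 4526 with CLA, against 4636 and 4606 with LA (−0.079 ± 0.057, adjusted p = 0.341). The other Loxl1 probe set, with a mean of 245, gave −0.51. Loxl3 read 597 and 538 with CLA, against 727 and 589 with LA (−0.21 ± 0.12, adjusted p = 0.239).

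Of the genes not called at 12 h, Col18a1, the source of endostatin, came nearest at 42.7 and 75.2 with CLA, against 84.5 and 106 with LA (−0.72 ± 0.24, adjusted p = 0.0570). Its other probe set, with a mean of 32.1, gave −0.023. Serpinh1 read 5175 and 5113 with CLA, against 4824 and 4146 with LA (0.20 ± 0.068, adjusted p = 0.0583), and its other probe set gave −0.15. In type VI collagen, Col6a1 read 2910.1 and 2822 with CLA, against 3061 and 3218 with LA (−0.13 ± 0.058, adjusted p = 0.133). Col6a2 read 2717 and 2638 with CLA, against 2822 and 3081 with LA (−0.14 ± 0.058, adjusted p = 0.111). Col6a3 read 2754 and 2695 with CLA, against 2765 and 2893 with LA (−0.054 ± 0.061, adjusted p = 0.552). All 3 chains, which form 1 heterotrimer, had negative differences that missed the threshold. That sign was shared by 8034 of the 12428 genes, and the median over all genes was −0.15, lower than each of the 3 chains. Type IV collagen, the sheet of basement membranes, was close to level: Col4a1 had 5659.8 and 6250.1 with CLA, against 5793 and 5589 with LA (0.064 ± 0.056, adjusted p = 0.435), and Col4a2 had 3569 and 3504 with CLA, against 3698 and 3828 with LA (−0.089 ± 0.061, adjusted p = 0.319). Among prolyl 4-hydroxylases P4ha1 read 722 and 760.4 with CLA, against 758 and 756 with LA (−0.030 ± 0.10, adjusted p = 0.854), with 0.75 from its other probe set. P4ha2 read 930.3 and 945 with CLA, against 1123 and 1086 with LA (−0.24 ± 0.089, adjusted p = 0.0844).

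**Figure D2:**
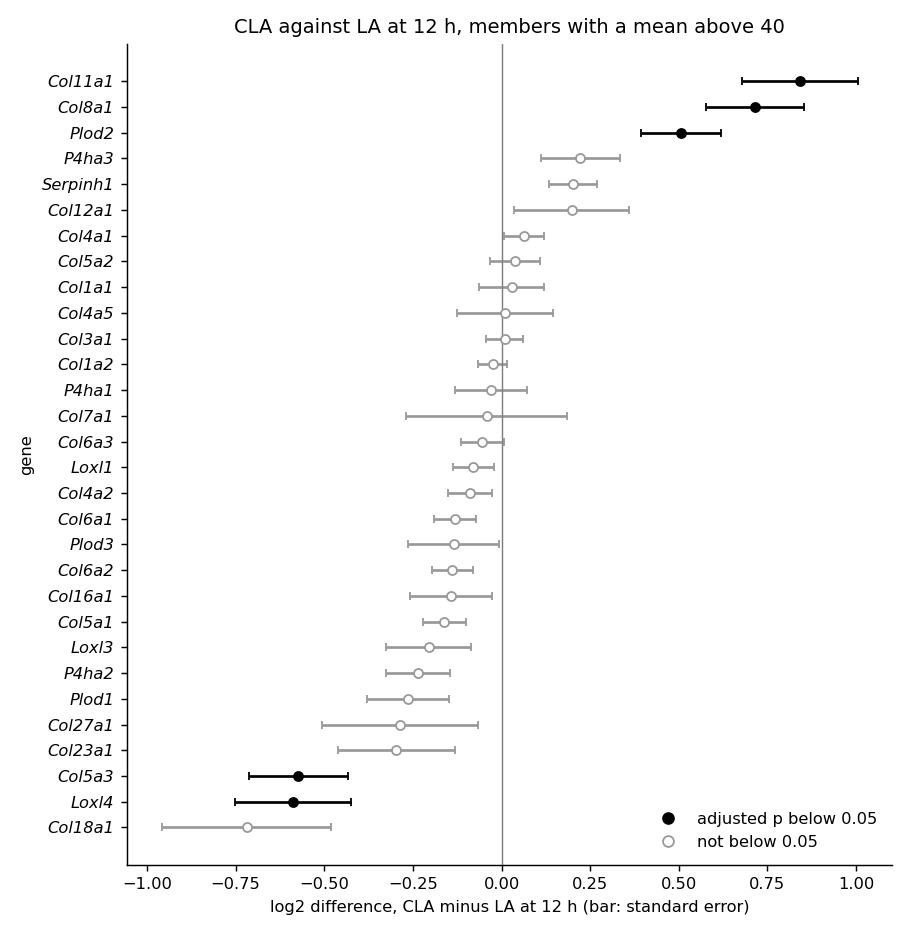
Log2 difference, CLA minus LA at 12 h, with its standard error (bar), for the 30 genes with a mean above 40, ordered by difference. Filled points mark the 5 called genes: Col11a1, Col8a1 and Plod2 lie to the right of 0, and Col5a3 and Loxl4 to the left.

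In the authors' deposited table of 12 h, 5 of the 37 genes were higher and 1 lower after adjustment, where 21% of all genes passed. The ratios there were 1.82 for Col11a1, 1.74 for Col8a1, 1.52 for Plod2 and 0.737 for Col5a3, read as CLA over LA, and Col12a1 (1.37) and P4ha3 (1.23) passed as well, while Loxl4 did not. The table does not name the direction of its ratio. Without one of the LA arrays of 12 h, replicate 2, the calls at 12 h fell to 1 (Col8a1), and without LA replicate 1 or CLA replicate 1 of 12 h to 2. The split was 6 higher and 0 lower with values as deposited (all-gene median 0.28), 3 and 0 with arrays scaled to a common median, 3 and 4 with cyclic loess, and with array brightness as a covariate 0 were called.

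**Figure D3:**
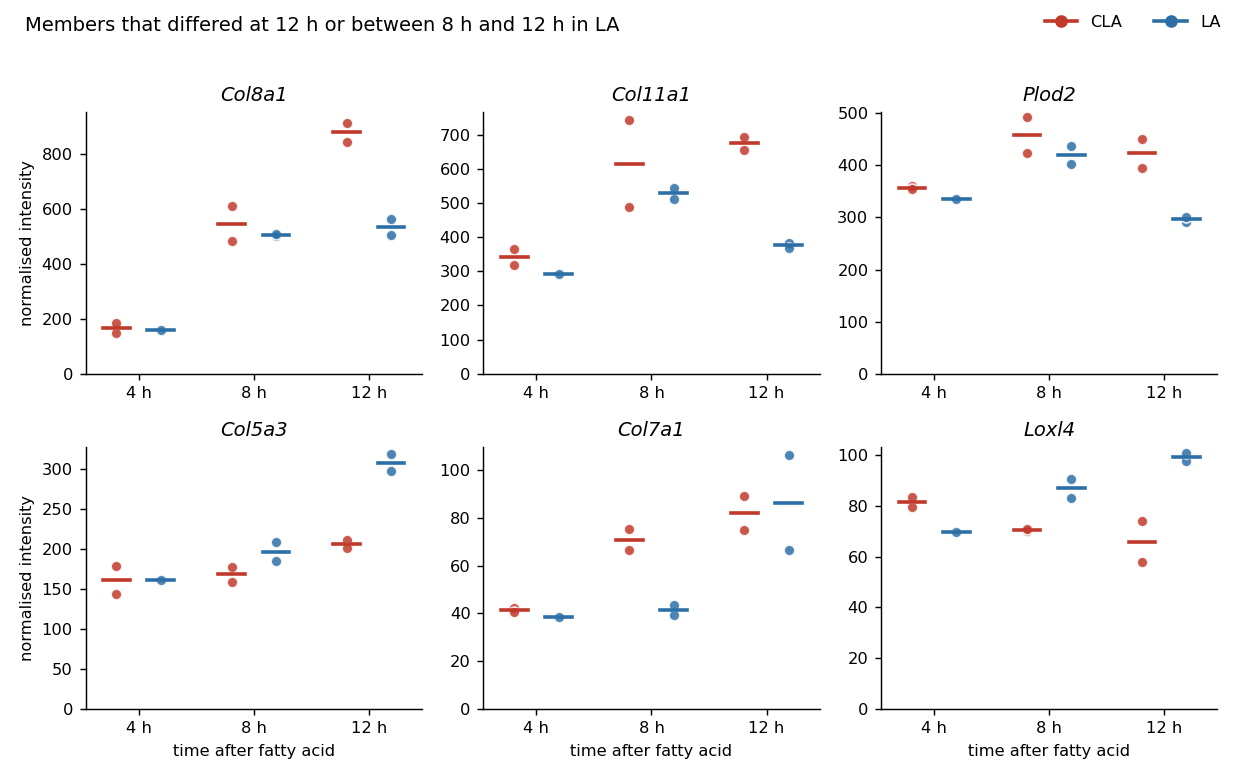
Normalised intensity of 6 genes at 4, 8 and 12 h, CLA (red) left of LA (blue), each point 1 array and each line the group mean. Col8a1, Col11a1 and Plod2 are higher with CLA at 12 h and Col5a3 and Loxl4 lower, while Col7a1 is apart at 8 h and overlaps at 12 h.

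Taking the mean of the CLA minus LA differences over the 3 times, Col11a1 and Serpinh1 were higher with CLA, and P4ha2, Col5a1 and Col6a2 were lower. These were 5 of 37 (13.5%), beside 7.21% of all genes (4.16% higher and 3.05% lower), and their differences were small. Col11a1 had a mean log2 difference of 0.42 ± 0.10 (adjusted p = 0.0374) and Serpinh1 of 0.16 ± 0.042 (adjusted p = 0.0483). P4ha2 had −0.26 ± 0.056 (adjusted p = 0.0276), Col5a1 −0.16 ± 0.038 (adjusted p = 0.0330) and Col6a2 −0.14 ± 0.036 (adjusted p = 0.0432). The CLA arrays of Col5a1 and Col6a2 lay below the LA arrays at all 3 times, and those of P4ha2 at 4 and 12 h. Col5a1 read 2018 and 1935 with CLA at 4 h, against 2287 with LA, and at 8 h 2313 and 2398 with CLA, against 2509 and 2588 with LA. Its other probe sets gave 0.43 and −0.15 at 4 h. Col6a2 at 8 h read 2979.8 and 2964 with CLA, against 3081 and 3057 with LA. P4ha2 at 8 h read 863 and 1000.2 with CLA, against 985 and 1060.1 with LA. Serpinh1 at 8 h read 4499 and 4729 with CLA, against 4322 and 4490.5 with LA, and its second bright probe set gave −0.05, 0.00 and −0.15 at 4, 8 and 12 h, so its increase was not seen in both. With values as deposited 0 of the 37 passed, with arrays scaled to a common median 1 was higher and 0 lower, and leaving out either CLA array of 4 h, either LA array of 8 h or LA replicate 2 of 12 h also left 0.

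In LA cells, 12 h against 8 h, Col7a1, Col5a3, Plod1, Col5a1 and Col4a1 were higher at 12 h and Plod2 was lower. These 6 of 37 (16.2%) stood beside 22.4% of all genes called (11% higher, 11.4% lower), so collagen genes again moved no more often than others. Because these LA arrays of 12 h are also those set against CLA at 12 h, the 2 comparisons share arrays and are not independent. The median log2 difference was 0.11 over the 37 and 0.13 over all genes.

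Col7a1 read 66.8 and 106 in LA cells at 12 h, against 39.4 and 43.6 at 8 h, apart but with a wide spread at 12 h (0.99 ± 0.23, adjusted p = 0.0110). Col5a3 read 298 and 318 at 12 h, against 185 and 208 at 8 h (0.64 ± 0.14, adjusted p = 0.00860). Plod1, which hydroxylates lysines within the helix, read 455 and 434 at 12 h, against 328 and 332 at 8 h (0.43 ± 0.12, adjusted p = 0.0242). Plod2 read 292 and 301 at 12 h, against 402 and 437 at 8 h (−0.50 ± 0.11, adjusted p = 0.0114), and its other probe set gave −0.49. Within the lysyl hydroxylases Plod1 thus rose and Plod2 fell in the same LA cultures, while Plod3 read 944 and 794 at 12 h, against 771 and 804 at 8 h (0.14 ± 0.13, adjusted p = 0.468). Col5a1 read 2997 and 3016 at 12 h, against 2509 and 2588 at 8 h (0.24 ± 0.061, adjusted p = 0.0182). Its other probe sets gave 0.04 and 0.16. Col11a1 fell short of the threshold at −0.49 ± 0.16 (adjusted p = 0.0525).

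Col4a1 read 5793 and 5589 in LA cells at 12 h, against 5009 and 5078 at 8 h (0.17 ± 0.056, adjusted p = 0.0448). Col4a2, its partner in the same trimer, read 3698 and 3828 at 12 h, against 3326 and 3559 at 8 h (0.13 ± 0.061, adjusted p = 0.148). In CLA cells Col4a1 read 5659.8 and 6250.1 at 12 h, against 4824 and 5009 at 8 h (0.27 ± 0.056, adjusted p = 0.0656), and Col4a2 read 3569 and 3504 at 12 h, against 3159 and 3453 at 8 h (0.099 ± 0.061, adjusted p = 0.665). All 4 differences were positive, and the arrays of 12 h lay above those of 8 h for both genes in both fatty acids. The median over all genes was 0.13 in LA cells, close to these 2 genes there, and 0.022 in CLA cells. The share of all genes without overlap at this step is not given here. Col4a1 and Col4a2 are known to be transcribed head to head from 1 shared promoter, so both windows are shown. The same motifs are in capitals. Col4a1 lies on the minus strand at chr8:11312777-11313076 and Col4a2 on the plus strand at chr8:11312555-11312854 (GRCm38.p6).
Col4a1: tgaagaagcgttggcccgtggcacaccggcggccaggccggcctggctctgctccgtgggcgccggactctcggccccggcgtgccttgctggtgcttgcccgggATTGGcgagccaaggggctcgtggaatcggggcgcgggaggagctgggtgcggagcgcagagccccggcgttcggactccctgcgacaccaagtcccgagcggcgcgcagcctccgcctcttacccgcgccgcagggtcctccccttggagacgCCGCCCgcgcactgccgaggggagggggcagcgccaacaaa
Col4a2: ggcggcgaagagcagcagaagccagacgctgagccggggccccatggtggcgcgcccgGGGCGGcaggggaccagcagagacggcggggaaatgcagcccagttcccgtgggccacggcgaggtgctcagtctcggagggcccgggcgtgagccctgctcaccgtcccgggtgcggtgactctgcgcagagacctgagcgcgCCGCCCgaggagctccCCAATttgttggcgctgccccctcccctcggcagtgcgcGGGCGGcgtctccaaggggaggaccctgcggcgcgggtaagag
The starts lie 21 bases apart on opposite strands, and the windows share 78 bases. Each window held CCAAT and GGGCGG. The CCAAT matches were different sites, at −145 from the Col4a1 start and −32 from the Col4a2 start. The GGGCGG at position 10 of Col4a1 and that at position 8 of Col4a2 were the same site, within the shared bases.

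In CLA cells, 12 h against 8 h, none of the 37 was called, where 0.426% of all genes were. Unadjusted, limma gave a p below 0.05 for 8 of 37 (21.6%), against 10.3% of all genes, with 5 higher (5.41% of all genes) and 3 lower (4.87%). Col8a1 read 914 and 844 at 12 h, against 610.3 and 482 at 8 h, without overlap (0.69 ± 0.14, adjusted p = 0.0656). In LA cells it read 507 and 563 at 12 h, against 501 and 508 at 8 h (0.082 ± 0.14, adjusted p = 0.699). Col5a2 read 6060.2 and 6567 at 12 h, against 5697 and 4909.7 at 8 h in CLA cells (0.25 ± 0.071, adjusted p = 0.209). Plod2 read 450.1 and 395 at 12 h, against 492 and 424 at 8 h in CLA cells, with overlap (−0.11 ± 0.11, adjusted p = 0.814).

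Whether the fatty acids differed in their change between 8 h and 12 h was tested directly, and none of the 37 passed, where 1.18% of all genes did. Unadjusted, limma gave a p below 0.05 for 4 of 37 (10.8%), against 14.9% of all genes. Col8a1 came first at 0.61 ± 0.20 (adjusted p = 0.166), then Col11a1 at 0.65 ± 0.23 (adjusted p = 0.216) and Col7a1 at −0.79 ± 0.32 (adjusted p = 0.277). A call for Plod2, Col5a3 or Col7a1 in LA cells and none in CLA cells is therefore not shown to be a difference between the fatty acids. With LA replicate 2 of 12 h left out, 0 of the 6 calls in LA cells remained, and leaving out any other LA array of 8 or 12 h left 1 or 2. The split in LA cells was 0 higher and 4 lower with values as deposited (all-gene median −0.19), 2 and 1 with arrays scaled to a common median, and 5 and 2 with cyclic loess.

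**Figure D4:**
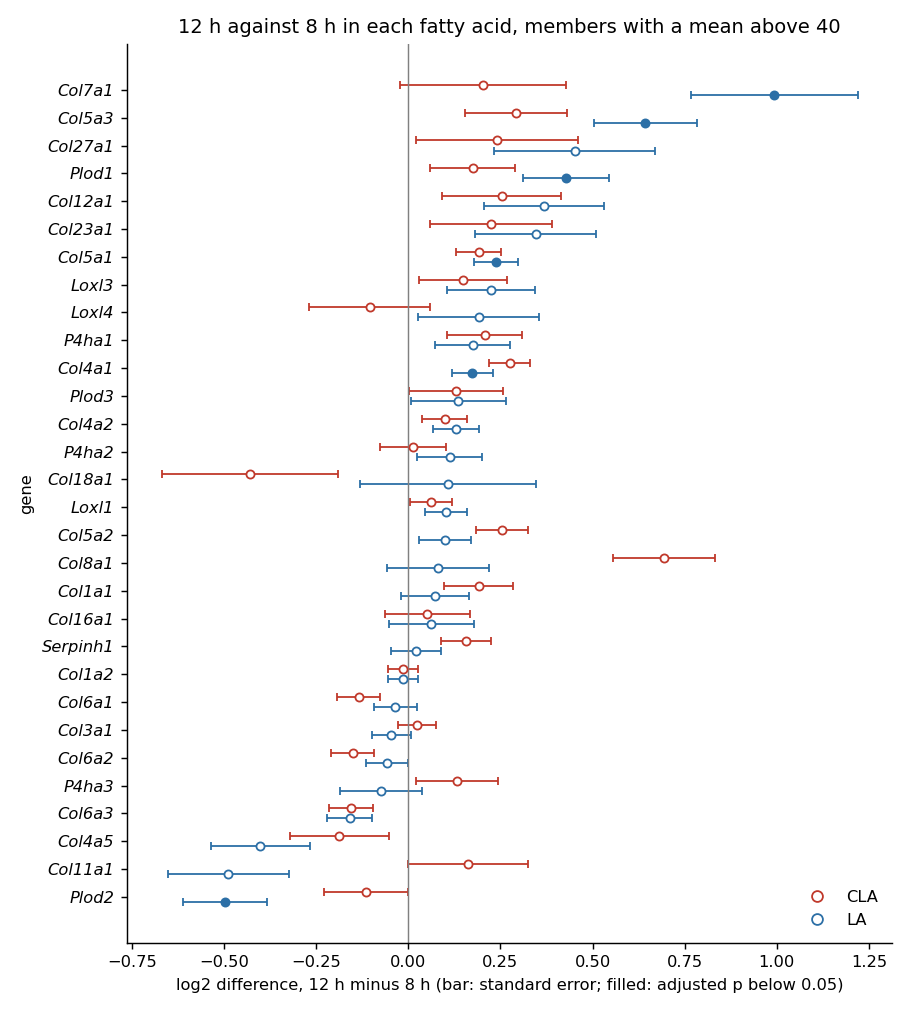
Log2 difference, 12 h minus 8 h, with its standard error (bar), for the 30 genes with a mean above 40, CLA in red above LA in blue. Filled points, adjusted p below 0.05, are all LA: Col7a1, Col5a3, Plod1, Col5a1 and Col4a1 above 0 and Plod2 below it.

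The change between 4 and 8 h was added after values had been seen, because several genes were far lower at 4 h. In CLA cells 11 of 37 genes (29.7%) differed, 8 higher and 3 lower at 8 h, beside 12.9% of all genes (7.36% higher and 5.57% lower). In LA cells 10 of 37 (27%) differed, 7 higher and 3 lower, beside 12.1% of all genes (7.31% higher and 4.83% lower). Col8a1, P4ha3, P4ha1, Col11a1 and Col5a2 rose and Col6a2 and Col6a3 fell in both fatty acids. The 2 comparisons share no array. Smooth muscle markers, which fibroblasts with contractile fibres also express, had higher values at 8 h too: Tagln averaged 752 at 8 h, against 99.9 at 4 h in CLA cells, and 822 at 8 h, against 97.9 at 4 h in LA cells. Acta2 averaged 8421 at 8 h, against 5051 at 4 h in CLA cells, and 8577 at 8 h, against 5531 at 4 h in LA cells. The 7 muscle markers, of which Myog, Cnn1 and Myh11 were above background on no array, summed to 8936 and 9378 at 8 h, against 5064 and 5183 at 4 h in CLA cells. In LA cells they summed to 9358 and 9396 at 8 h, against 5606 at 4 h. Their part in the collagen differences was not tested. With arrays scaled to a common median the splits were 5 higher and 0 lower in CLA cells and 9 and 0 in LA cells, and with values as deposited 6 and 0 in CLA cells and 1 and 1 in LA cells. Without CLA replicate 1 or 2 of 4 h the calls in CLA cells fell to 6 or 5, and without either LA array of 8 h those in LA cells fell to 4.

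Col8a1 read 610.3 and 482 at 8 h in CLA cells, against 148 and 183 at 4 h, an increase of 1.71 ± 0.14 on the log2 scale or 3.26-fold (adjusted p = 2.38e-05). In LA cells it read 501 and 508 at 8 h, against 160.2 at 4 h (1.64 ± 0.17, 3.13-fold, adjusted p = 1.85e-04). Every array of 8 h was above every array of 4 h, and among the 30 genes with a mean above 40 this was the largest change in each fatty acid. Col11a1 rose by 0.82 ± 0.16 in CLA cells (adjusted p = 0.00688) and by 0.85 ± 0.20 in LA cells (adjusted p = 0.0196). Col5a2 read 5697 and 4909.7 at 8 h, against 4152 and 4092 at 4 h in CLA cells (0.36 ± 0.071, adjusted p = 0.00625). In LA cells Col5a2 read 5749.7 and 5721 at 8 h, against 4227 at 4 h (0.44 ± 0.086, adjusted p = 0.00838). Col12a1 read 314 and 331 at 8 h, against 196 and 139 at 4 h in CLA cells (0.95 ± 0.16, adjusted p = 0.00275). In LA cells it read 243 and 276 at 8 h, against 179.7 at 4 h, and was not called (0.52 ± 0.20, adjusted p = 0.116). The other Col12a1 probe set above the intensity limit, with a mean of 70.1, gave 0.50 in CLA cells and 0.91 in LA cells. Which fatty acid had the larger rise thus rests on the probe set.

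Of the prolyl 4-hydroxylase subunits, P4ha1 read 583 and 706 at 8 h, against 444 and 436 at 4 h in CLA cells (0.54 ± 0.10, adjusted p = 0.00490). In LA cells P4ha1 read 666 and 674 at 8 h, against 467 at 4 h (0.52 ± 0.12, adjusted p = 0.0212). P4ha3 read 416 and 386 at 8 h, against 239 and 265 at 4 h in CLA cells (0.67 ± 0.11, adjusted p = 0.00239). In LA cells P4ha3 read 398 and 394 at 8 h, against 228 at 4 h (0.79 ± 0.14, adjusted p = 0.00406). For both subunits every array of 8 h was above every array of 4 h. P4ha2 was higher at 8 h in CLA cells, by 0.33 ± 0.089 (adjusted p = 0.0300), and in LA cells gave 0.076 ± 0.11 (adjusted p = 0.724). P4ha1 is a known target of hypoxia-inducible factor, so its promoter is shown with ACGTG in capitals on either strand (CACGT on the other). ACGTG is a form of the core bound by that factor, and other forms were neither marked nor counted. It lies on the plus strand at chr10:59323046-59323345 (GRCm38.p6).
P4ha1: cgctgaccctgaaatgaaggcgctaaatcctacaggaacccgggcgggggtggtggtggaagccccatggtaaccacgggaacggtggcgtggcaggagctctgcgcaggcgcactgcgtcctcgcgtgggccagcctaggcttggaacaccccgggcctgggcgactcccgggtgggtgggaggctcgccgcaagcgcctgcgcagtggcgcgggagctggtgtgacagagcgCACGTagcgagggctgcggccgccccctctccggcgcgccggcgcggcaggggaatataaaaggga
The window held 1 match to ACGTG, and 7 of the 28 genes with an entry held that form (25%), against 28.7% of tested genes.

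Of the type VI chains, Col6a2 and Col6a3 were lower at 8 h than at 4 h in both fatty acids, and Col6a1 passed the test in LA cells only. Col6a2 read 2979.8 and 2964 at 8 h, against 3453 and 3467 at 4 h in CLA cells (−0.22 ± 0.058, adjusted p = 0.0294). In LA cells it read 3081 and 3057 at 8 h, against 4073 at 4 h (−0.41 ± 0.071, adjusted p = 0.00431). Col6a3 read 2918 and 3156 at 8 h, against 3598 and 3543 at 4 h in CLA cells (−0.23 ± 0.061, adjusted p = 0.0268). In LA cells Col6a3 read 3066 and 3252 at 8 h, against 3815 at 4 h (−0.27 ± 0.075, adjusted p = 0.0368). Col6a1 read 3051 and 3244 at 8 h, against 3594 and 3504 at 4 h in CLA cells (−0.17 ± 0.058, adjusted p = 0.0778). In LA cells Col6a1 read 3147 and 3289 at 8 h, against 3967 at 4 h (−0.30 ± 0.071, adjusted p = 0.0198). With arrays scaled to a common median instead, the LA differences of Col6a1 and Col6a3 turned to 0.087 and 0.14, so the direction of these chains in LA cells depends on the scaling and on the 1 LA array of 4 h.

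Among the remaining calls, Col27a1, a fibrillar chain of cartilage, fell by 0.84 ± 0.22 in CLA cells (adjusted p = 0.0266) and gave −0.83 ± 0.27 in LA cells (adjusted p = 0.0689). It read 41.4 and 60.1 at 8 h with CLA, against 95.3 and 87.1 at 4 h. Col5a1 rose by 0.25 ± 0.061 in CLA cells (adjusted p = 0.0182) and gave 0.16 ± 0.074 in LA cells (adjusted p = 0.208), and its other probe sets gave 0.33 and 0.01 in CLA cells. Serpinh1 rose by 0.31 ± 0.083 in LA cells (adjusted p = 0.0357) and gave 0.17 ± 0.068 in CLA cells (adjusted p = 0.131). Its second bright probe set gave 0.13 in LA cells and 0.17 in CLA cells. Col23a1, a transmembrane collagen, read 127 and 137 at 8 h in LA cells, against 75.2 at 4 h (0.80 ± 0.20, adjusted p = 0.0269), while its other probe sets gave 0.08 and 0.35. Whether CLA and LA differed in the change between 4 and 8 h was tested in limma, and 0 of the 37 passed (0.0322% of all genes did). Unadjusted, 2 of 37 had a p below 0.05 (5.41%), against 5.75% of all genes.

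**Figure D5:**
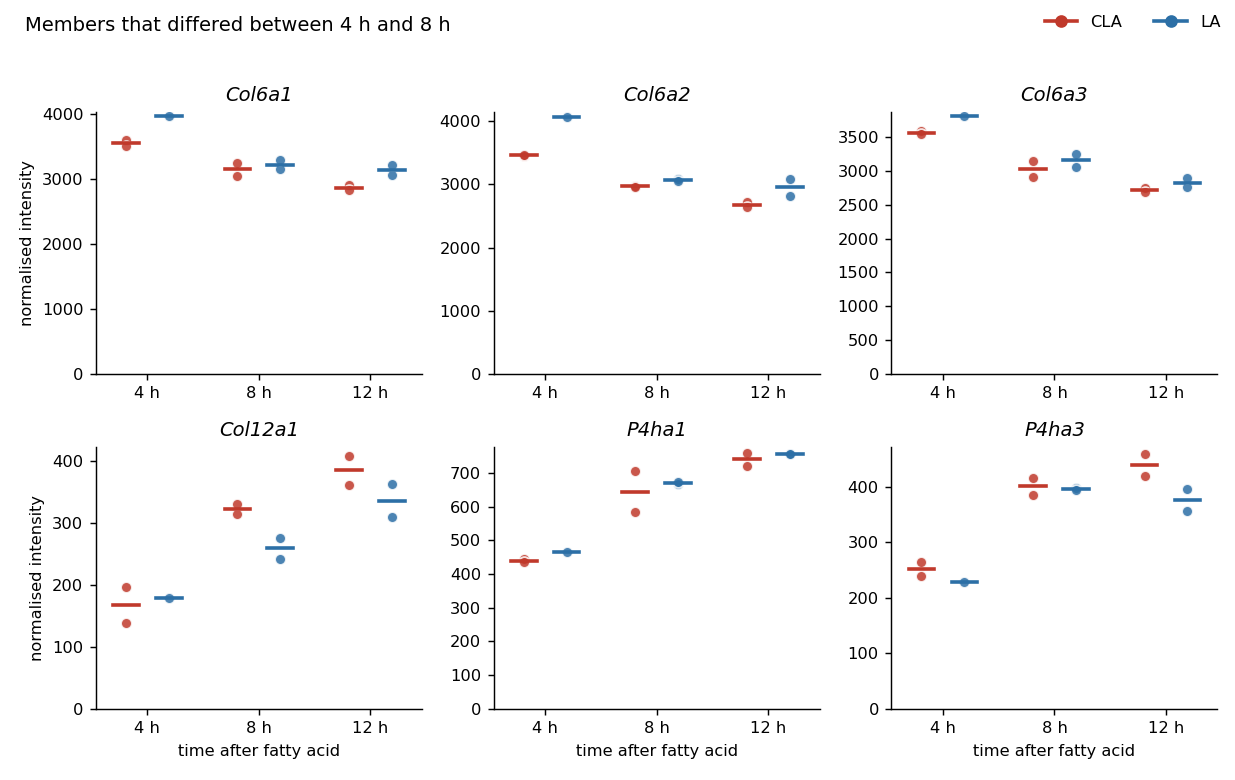
Normalised intensity of 6 genes at 4, 8 and 12 h, CLA (red) left of LA (blue), each point 1 array and each line the group mean. The type VI chains Col6a1, Col6a2 and Col6a3 are highest at 4 h, and Col12a1, P4ha1 and P4ha3 are lowest there.

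Of other genes of collagen handling a minority was called, in both directions, where 18.9% of all genes were called at 12 h. At 12 h, CLA against LA, 3 of 18 further processing genes were higher and 2 lower: Lox, the founding lysyl oxidase, gave 0.29 ± 0.045 (adjusted p = 0.00229), Mia3, which loads procollagen into transport carriers, 0.69 ± 0.14 (adjusted p = 0.00880) and the prolyl isomerase Fkbp14 0.30 ± 0.068 (adjusted p = 0.0134). The lower genes were P3h1, the prolyl 3-hydroxylase of fibrillar chains (−0.40 ± 0.12, adjusted p = 0.0399), and Ppib, its partner (−0.20 ± 0.060, adjusted p = 0.0378). Of 14 collagen-binding matrix genes 3 were higher and 2 lower, among them Postn (periostin) at 1.09 ± 0.21 (adjusted p = 0.00698), Dcn (decorin) at 0.46 ± 0.13 (adjusted p = 0.0363) and Fmod (fibromodulin) at −0.59 ± 0.16 (adjusted p = 0.0282). Of 15 genes of breakdown and receptors 2 were higher and 1 lower, with the collagen receptors Itgb1 at 0.82 ± 0.14 (adjusted p = 0.00395) and Ddr2 at 0.64 ± 0.099 (adjusted p = 0.00195). Of 13 regulators of the TGF-beta and hypoxia pathways 2 were higher and 1 lower: Tgfbr1 gave 1.0 ± 0.14 (adjusted p = 0.00130), Hif1a 0.54 ± 0.077 (adjusted p = 0.00147) and Tgfbr2 −0.34 ± 0.087 (adjusted p = 0.0228).

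In LA cells, 12 h against 8 h, 4 of the 18 processing genes were higher and 2 lower. Over all genes 22.4% were called at this step, 11% higher and 11.4% lower. P3h4 gave 0.68 ± 0.12 (adjusted p = 0.00350) and P3h1 0.48 ± 0.12 (adjusted p = 0.0156), while Mia3 fell by 0.76 ± 0.14 (adjusted p = 0.00421) and Lox by 0.26 ± 0.045 (adjusted p = 0.00304). Of the binding genes 1 of 14 was higher and 5 lower, of the breakdown and receptor genes 1 of 15 higher and 4 lower, and of the regulators 2 of 13 higher and 2 lower. Tgfbr1 fell by 1.40 ± 0.14 (adjusted p = 2.08e-04) and Hif1a by 0.80 ± 0.077 (adjusted p = 2.08e-04). The test of the change of the CLA minus LA difference between 8 and 12 h passed for Tgfbr1, at 0.96 ± 0.20 (adjusted p = 0.0461), and for Hif1a, at 0.55 ± 0.11 (adjusted p = 0.0438). No other gene of these 4 lists passed it, where 1.18% of all genes did. In CLA cells, 12 h against 8 h, none of the genes of these lists was called, where 0.426% of all genes were.

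Between 4 and 8 h a minority of each of these lists was called, in both directions, where 12.9% of all genes were called in CLA cells and 12.1% in LA cells. In CLA cells 5 of 18 processing genes were higher at 8 h and 1 lower, of the binding genes 2 were higher and 3 lower, of the breakdown and receptor genes 2 higher and 2 lower, and of the regulators 2 higher and 1 lower. In LA cells these counts were 5 and 1, 2 and 3, 3 and 2, and 2 and 1. Among the processing genes Fkbp14 rose by 0.87 ± 0.068 in CLA cells (adjusted p = 1.82e-05) and by 0.94 ± 0.083 in LA cells (adjusted p = 7.36e-05). P3h1 rose by 0.73 ± 0.12 in CLA cells (adjusted p = 0.00193) and by 0.77 ± 0.14 in LA cells (adjusted p = 0.00635). Creb3l1, a transcription factor of procollagen genes in bone, fell by 0.97 ± 0.15 in CLA cells (adjusted p = 0.00135) and by 0.72 ± 0.18 in LA cells (adjusted p = 0.0247).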

How the data were processed

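RNA was extracted with Trizol and biotinylated cRNA was hybridised to Affymetrix arrays, per the labels' protocols. The deposited intensity of each probe set is linear and background-subtracted (some values lie below 0), made by software not given in the sources used here. For each time the authors also deposited a Rosetta Resolver table with, per the file headers, a ratio, its log10 and a p-value, by a method not given in the sources used here. Its direction was taken as CLA over LA because its log10 ratios rose with the CLA minus LA differences across genes (Pearson r = 0.655 at 4 h, 0.679 at 8 h and 0.820 at 12 h), so that sign is no separate evidence.

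Intensities were quantile normalised over 11 arrays, set to at least 0 and taken as log2(value + 1.84), which understates changes of dim genes. Probe sets with 1 platform symbol and a mean above 7.81 were kept, and the one with the highest mean log2 value stood for a gene. Of 34945 probe sets with 1 symbol, 34741 matched GRCm38.p6 by Entrez ID, used for names, and no symbol changed. Of 37 collagen and modifying genes, 22 had several such probe sets. Groups, from the labels, were compared in limma 3.58.1 (R 4.3.3) with 6 group means in 1 fit, an intensity trend and Benjamini-Hochberg adjustment at 0.05 over 12428 genes, with 5 residual and 6.17 prior degrees of freedom. The script was tested on simulated data. The LA group of 4 h, with 1 array, borrows the spread of the rest. Precision is limited by the number of arrays.

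The contrasts were CLA minus LA per time, their mean, the change of the difference, and 12 h minus 8 h per fatty acid, with 8 h minus 4 h added after values were seen. Values per array were given for every called gene, for the 3 smallest p-values of a contrast and for 20 preset genes except Loxl2. From the 4 further lists differences were given for at most 6 called genes each. Genes and lists were chosen with earlier results of these data known. Alternatives covered scaling, filter, offset, probe set choice, trend, block, covariate and each array left out. The motifs were counted by script. Protein features were not analysed here.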

Additional observations from a re-analysis of the deposited data

Results flagged for a closer look

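In 4 genes all CLA arrays lay above the LA arrays at 1 time and below them at another. How many of all genes did so was not counted, so the 4 are not shown to be unusual. Arrays of the fatty acids did not overlap for 75.8% of all genes at 4 h and for 62.7% at 12 h. Differences are on the log2 scale. Loxl4 was 0.22 higher with CLA at 4 h, and its CLA minus LA difference was −0.29 at 8 h and −0.59 at 12 h. The change of that difference had an adjusted p of 0.926 between 4 and 8 h and of 0.128 between 4 and 12 h in limma. Col23a1, a transmembrane collagen, had a difference of 0.50 at 4 h and of −0.30 at 12 h (adjusted p of the change 0.134), and its other probe sets gave −0.60 and −0.14 at 4 h. Plod1 had 0.15 at 4 h and −0.26 at 12 h (adjusted p of the change 0.266). Col14a1, whose mean of 9.85 is close to the background level of 8.89, had −0.75 at 4 h and 1.62 at 8 h (adjusted p of the change 0.952), and its other probe set above the intensity limit gave −0.35 and −1.54. None of these changes passed the test, and each involves 4 h, where LA has 1 array.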

How the results depend on the processing

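Of 225 recomputed counts of called genes 177 stayed within 1.5 times the count reported, and of 1221 recomputed single-gene values 956 kept direction and side of the threshold, 256 no longer passed, 5 newly passed and 4 changed sign. The 4 were Col1a2 at 4 h (0.075, CLA minus LA), Col6a1 (0.087) and Col6a3 (0.14) for 8 h minus 4 h in LA, all with arrays scaled to a common median, and Col14a1 at 8 h (−0.62 with an offset of 16). With that offset the other Col14a1 probe set above the intensity limit had the highest mean log2 value and stood for the gene. It gave −1.54 at 8 h with the main offset too, so this is a change of probe set. The cause of the other changes of sign was not tested. Col8a1 passed at 12 h in 23 of 25 alternatives, Col11a1 in 22, Plod2 in 21, Col5a3 in 18 and Loxl4 in 13, and Col8a1 passed between 4 and 8 h in all alternatives run, 25 in CLA and 24 in LA.

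The counts at 12 h, reported as 5, were 3 with arrays scaled to a common median and 0 with array brightness as a covariate. For 12 h minus 8 h in LA, reported as 6, they were 3 with that scaling, 3 without the intensity trend, 10 with only the arrays compared and 0 with the covariate. In CLA, reported as 0, they were 1 with the 60th percentile filter and 1 with the covariate. For the mean over times, reported as 5, they were 1 with that scaling, 0 as deposited, 0 without a filter, 0 without the trend, 3 with the covariate and 0 without 12 h. For 8 h minus 4 h they were, in CLA (reported as 11), 5 with that scaling, 6 as deposited, 5 without a filter, 4 without the trend and 7 with only the arrays compared, and in LA (reported as 10), 2 as deposited, 5 without a filter and 2 without the trend. Leaving out 1 array at a time gave 1 to 8 at 12 h, 0 to 7 for 12 h minus 8 h in LA, 0 to 1 in CLA, 0 to 11 for the mean, 0 to 2 for the change of the difference (2 without CLA replicate 1 of 8 h), 5 to 12 for 8 h minus 4 h in CLA and 4 to 12 in LA. Leaving out the 1 LA array of 4 h allows no value for 4 h, the mean or 8 h minus 4 h in LA.

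Replicate numbers did not pair the arrays: deviations of same-numbered arrays from their group means correlated at −0.039 to 0.066. With a replicate block within each time 1 gene was called for 12 h minus 8 h in CLA, 3 for the mean and 4 for 8 h minus 4 h in CLA. Of the other counts under either form of the block, all stayed within 1.5 times, such as 7 at 12 h.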
